A study of Mus musculus with 24 samples.

Results

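The response of hippocampal slices to 5 min of DHPG was examined in wild-type (WT) tissue, in 12 of the 24 libraries of the series. These were 3 vehicle and 3 DHPG libraries of RNA-seq and 3 vehicle and 3 DHPG libraries of ribosome profiling, taken by the labels' genotype, treatment and assay. The WT animals were male littermates of Tsc2+/- mice on a C57BL/6J background, 28 to 42 days old. The Tsc2+/- line, which gave the other 12 libraries, descends from a cross of a floxed Tsc2 allele with CMV-Cre, and it enters here only where a value is set beside that of WT. Acute slices received artificial cerebrospinal fluid (vehicle) or 100 µM DHPG for 5 min, were then placed in cycloheximide and frozen. CA3 had been cut away, so that the tissue was enriched for CA1. Each library came from pooled slices of several animals, so that a replicate is a pool and not a single mouse. RNA and footprint libraries were made from the same lysates.

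DHPG is an agonist of the group I metabotropic glutamate receptors, among them mGluR5. These receptors couple through Gq proteins to phospholipase C and calcium release, and also feed the ERK and mTOR kinase pathways. In CA1 a brief DHPG pulse elicits a long-term depression of synaptic strength (mGluR-LTD) that needs new protein synthesis from mRNAs already present in dendrites, among them those of Arc and Map1b. Ribosome profiling sequences the mRNA stretch that a ribosome shields from nuclease, the ribosome-protected fragment (RPF). The RPF level of a gene thus follows both the amount of its mRNA and the density of ribosomes on it. The RPF change minus the RNA change is called here the change in translational efficiency (TE).

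The 6 WT RNA libraries held 14801679 to 24067838 counts and the 6 WT RPF libraries 5296006 to 13613673. Levels are given as CPM, counts scaled to a common library size. Between WT libraries Pearson's r of log2 CPM, taken across genes that are not independent, lay at 0.987 to 0.990 in RNA and at 0.977 to 0.991 in RPF. In the 4 WT RPF libraries of replicates 2 and 3 between 97.9% and 98.5% of the non-zero counts were even numbers, compared with 48.2% to 49.4% in the other 8 WT libraries. Results with the counts of these libraries halved are given in the closing section. All 11 CA1 pyramidal neuron markers passed the count filter in RNA, with a summed level of 2363 to 2444 CPM in vehicle and 2419 to 2455 CPM in DHPG. Markers of CA3 were still present, 10 of 11 tested, at 1062 to 1154 CPM in vehicle and 1094 to 1222 CPM in DHPG. Not one marker tested from the 10 cell type lists, which also covered dentate granule cells, interneurons, astrocytes, oligodendrocytes, microglia, vessel cells, choroid plexus and blood, was called between vehicle and DHPG. Over all genes 0% were called in RNA, 0.0311% in RPF and 0.0548% in TE, so that 0 calls in lists this small do not speak to cell composition. Of the blood markers 0 were tested in RPF or TE. In bulk tissue a lower level can come from fewer cells of a type or from less RNA per cell, and these cannot be told apart.

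Few single genes separated DHPG from vehicle. No gene changed in RNA, 4 changed in RPF and 7 changed in TE at an adjusted p under 0.1 (edgeR quasi-likelihood F test with replicate number in the model, two-sided, Benjamini-Hochberg over all genes). In RNA 0 of 14516 genes were called (0%), the smallest adjusted p was 0.473, and 936 genes (6.45%) had an unadjusted p under 0.05. DESeq2 also called 0 genes in RNA. RPF calls numbered 4 among 12877 genes (0.0311%), with 2 in each direction (0.0155% each), and another threshold, an unadjusted p under 0.05, was met by 864 (6.71%). TE calls numbered 7 among 12785 genes (0.0548%), of which 2 rose (0.0156%) and 5 fell (0.0391%), and 1158 (9.06%) met the unadjusted threshold. One gene, Npcd, was called in both RPF and TE, so that 10 different genes were called in all.

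**Figure D1:**
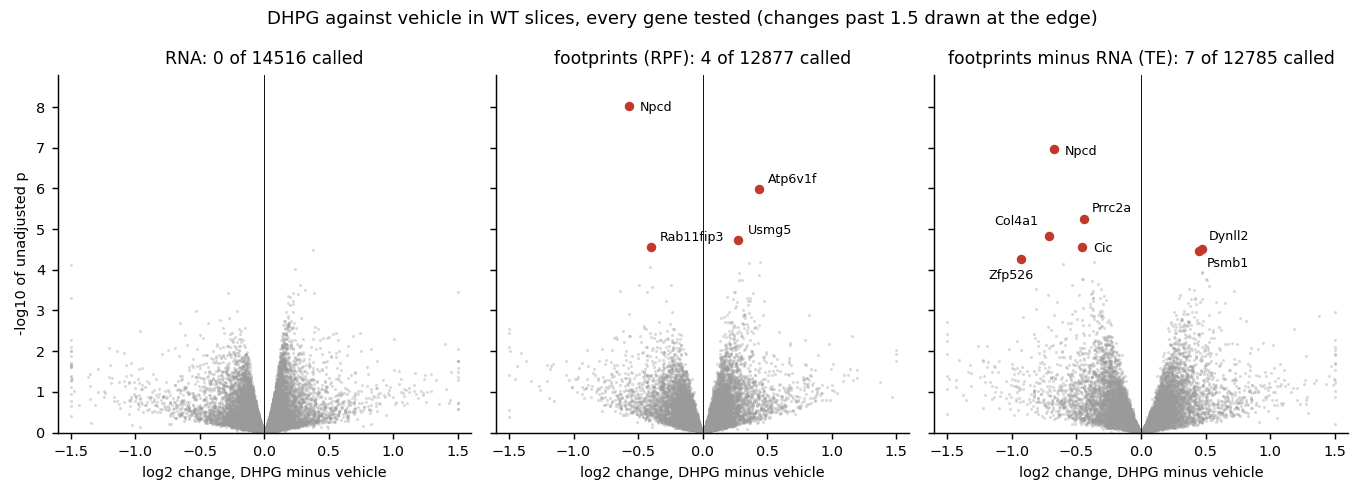
Log2 fold change of DHPG against vehicle in WT (x axis) and the negative log10 of the unadjusted p (y axis) for every gene tested, in panels for RNA, RPF and TE. Called genes are named, with 0 in RNA, 4 in RPF and 7 in TE; changes larger than the axis are drawn at its edge.

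The clearest single difference was in Npcd, and what its counts stand for depends on the annotation. Npcd lies on the minus strand at chr15:79786351-79834333 (GRCm38.p6, the same build as mm10) and is annotated in RefSeq as a read-through of the neighbouring genes Cbx6 and Nptxr. Cbx6 encodes a chromobox protein of Polycomb complexes, and Nptxr the neuronal pentraxin receptor of excitatory synapses. All 1410 coding bases of Npcd are also coding in one of these genes, 873 in Nptxr and 537 in Cbx6. The bases at the join are shown because only a fragment that spans them belongs to Npcd by its sequence. The Cbx6 side, chr15:79833512-79833526, is in lower case and the Nptxr side, chr15:79794461-79794475, in capitals, 5′ to 3′ on the minus strand, from RefSeq and the GRCm38.p6 genome.
Npcd junction: actttcctcctaaagCAGGAGCTCCCAGCC

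RPF assigned to Npcd stood at 219, 208 and 228 CPM in vehicle replicates 1 to 3 and at 139, 155 and 147 CPM in DHPG replicates 1 to 3. The groups did not overlap, and Npcd fell by 0.57 on the log2 scale in RPF (SE 0.0738, edgeR adjusted p = 0.000121). Its RNA was 1356, 1459 and 1472 CPM in vehicle and 1456, 1484 and 1653 CPM in DHPG, a log2 difference of 0.10 (edgeR adjusted p = 0.795), and its TE fell by 0.67 (SE 0.0966, edgeR adjusted p = 0.00138). The call in RPF was kept under every one of the 19 alternatives run.

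Neither neighbour was called in RNA, RPF or TE, which does not show that their levels stayed the same. Nptxr had 470, 317 and 270 CPM of RPF in vehicle and 422, 371 and 352 in DHPG. Its log2 difference in RPF was 0.14 (edgeR adjusted p = 0.769), and its RNA ranged from 142 to 512 CPM within the vehicle group alone. Cbx6 had 162, 154 and 151 CPM of RPF in vehicle and 160, 152 and 150 in DHPG (log2 difference -0.02). When the CPM of the 3 genes were added in each library, the RPF sum was 726 ± 109 in vehicle and 682 ± 36.2 in DHPG (SD, n = 3), a log2 ratio of -0.09, and the groups overlapped. The RNA sum was 2413 ± 228 in vehicle and 2621 ± 47.0 in DHPG, a log2 ratio of 0.12. The estimated counts divide reads of shared bases among the 3 genes. The spread of the vehicle sums was larger than the difference in Npcd itself, 218 against 147 CPM on average. By replicate number the RPF sum went from 851 to 721 CPM in replicate 1, from 679 to 678 in replicate 2 and from 648 to 649 in replicate 3. In replicates 2 and 3 Npcd was lower and Nptxr higher after DHPG, while in replicate 1 both were lower. Whether the division of shared reads differed between vehicle and DHPG was not tested.

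**Figure D2:**
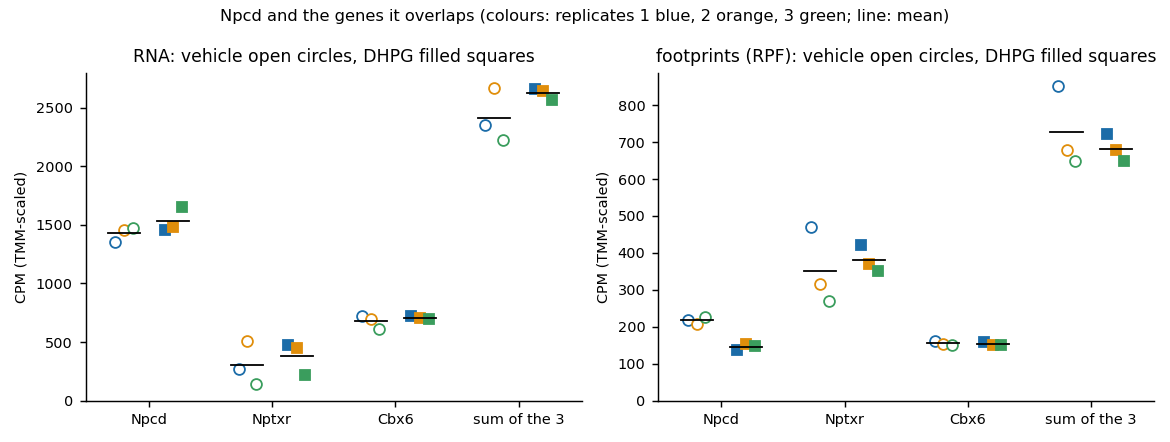
CPM in each WT library for Npcd, Nptxr, Cbx6 and their sum, in RPF and in RNA, with vehicle and DHPG libraries as points and group means as lines. RPF assigned to Npcd is at 208 to 228 CPM in vehicle and 139 to 155 CPM in DHPG, while the sum of the 3 genes overlaps between the groups.

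Among the genes with more footprints after DHPG was Atp6v1f (chr6:29467783-29470509, plus strand, 360 coding nt), a subunit of the cytosolic V1 sector of the proton pump that acidifies lysosomes and synaptic vesicles. Its RPF level was 101, 118 and 110 CPM in vehicle and 140, 159 and 147 CPM in DHPG. Every DHPG library was above every vehicle library, and RPF rose by 0.44 (SE 0.0727, edgeR adjusted p = 0.00656). RNA of Atp6v1f was 45.0, 51.1 and 57.6 CPM in vehicle and 48.4, 54.7 and 47.1 CPM in DHPG, groups that overlapped, and its TE difference of 0.47 did not pass the threshold (edgeR adjusted p = 0.139). Without replicate 2, or without DHPG replicate 2, the RPF call was lost as well, and the adjusted p reached 0.32.

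Usmg5 (Atp5md in RefSeq, chr19:47083471-47090647, minus strand, 177 coding nt), a small subunit associated with the mitochondrial ATP synthase, had 280, 344 and 315 CPM of RPF in vehicle and 349, 387 and 401 CPM in DHPG. The lowest DHPG library was only just above the highest vehicle library. RPF of Usmg5 rose by 0.28 (SE 0.0550, edgeR adjusted p = 0.0774), with RNA at 51.1 to 58.6 CPM in vehicle and 49.2 to 59.1 CPM in DHPG. Rab11fip3 (chr17:25989036-26070077, minus strand, 3279 coding nt), an effector of Rab11 in recycling endosomes, went the other way in RPF. It stood at 91.4, 70.3 and 87.9 CPM in vehicle and 64.1, 58.1 and 66.6 CPM in DHPG, with no overlap, and fell by 0.40 (SE 0.0815, edgeR adjusted p = 0.0878). Rab11fip3 RNA was at 181 to 188 CPM in vehicle and 181 to 184 CPM in DHPG. The RPF calls of Usmg5 and Rab11fip3 were lost in 10 and 11 of 19 alternatives, including the model with no replicate block, the removal of each library's trend with length and GC content, and ComBat followed by DESeq2.

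Of the 7 genes called in TE, 5 fell. Prrc2a (chr17:35149076-35165321, minus strand, 6477 coding nt), which encodes a long proline-rich protein, had 667, 728 and 618 CPM of RNA in vehicle and 787, 744 and 779 CPM in DHPG. Its RPF went from 256, 210 and 215 CPM to 190, 192 and 194 CPM. Both readouts separated the groups, in opposite directions, while neither passed the threshold alone (edgeR adjusted p = 0.541 for RNA and 0.403 for RPF), and TE fell by 0.44 (SE 0.0854, edgeR adjusted p = 0.0367). Cic (chr7:25267658-25294159, plus strand, 7533 coding nt), the transcriptional repressor capicua that is controlled by ERK signalling, had the same arrangement. RNA of Cic was 308, 343 and 285 CPM in vehicle and 376, 355 and 371 CPM in DHPG, and its RPF was 86.0, 74.3 and 76.8 CPM in vehicle and 68.0, 64.5 and 71.4 CPM in DHPG. The groups did not overlap in either readout, and TE of Cic fell by 0.46 (SE 0.0974, edgeR adjusted p = 0.0730).

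Col4a1 (chr8:11198423-11312889, minus strand, 5010 coding nt), a chain of the collagen of vascular basement membranes, had RNA of 43.6, 45.4 and 42.7 CPM in vehicle and 49.0, 48.3 and 56.5 CPM in DHPG. Its RPF was 79.4, 43.9 and 66.6 CPM in vehicle and 49.4, 37.4 and 46.4 CPM in DHPG, where the groups overlapped through the vehicle library of replicate 2. TE of Col4a1 fell by 0.72 (SE 0.144, edgeR adjusted p = 0.0631). Zfp526 (chr7:25219849-25227876, plus strand, 2028 coding nt), a zinc finger gene of low abundance, had 13.3, 17.8 and 16.7 CPM of RPF in vehicle and 9.63 to 10.7 CPM in DHPG. These did not overlap, its RNA was at 7.78 to 9.48 CPM in vehicle and 10.1 to 11.5 CPM in DHPG, and TE fell by 0.93 (SE 0.208, edgeR adjusted p = 0.0985).

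The genes with higher TE were short. Dynll2 (chr11:87979525-88003817, minus strand, 270 coding nt), a dynein light chain that is also found in the postsynaptic density, had 186, 273 and 246 CPM of RPF in vehicle and 304, 310 and 306 CPM in DHPG. The DHPG libraries lay close together and above the vehicle libraries, RNA was 477 to 514 CPM in vehicle and 443 to 497 CPM in DHPG, and TE rose by 0.47 (SE 0.0982, edgeR adjusted p = 0.0730). Psmb1 (chr17:15475721-15498276, minus strand, 723 coding nt), a beta subunit of the 20S proteasome, had 256, 318 and 330 CPM of RPF in vehicle and 345, 373 and 347 CPM in DHPG. Its RNA was 87.5, 78.6 and 94.8 CPM in vehicle and 72.4, 80.8 and 72.4 CPM in DHPG, so that the groups separated in RPF and overlapped in RNA. TE of Psmb1 rose by 0.45 (SE 0.0977, edgeR adjusted p = 0.0730). Each of the 7 TE calls was lost when the trend of each library with length and GC content was removed, and also without replicate 3.

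**Figure D3:**
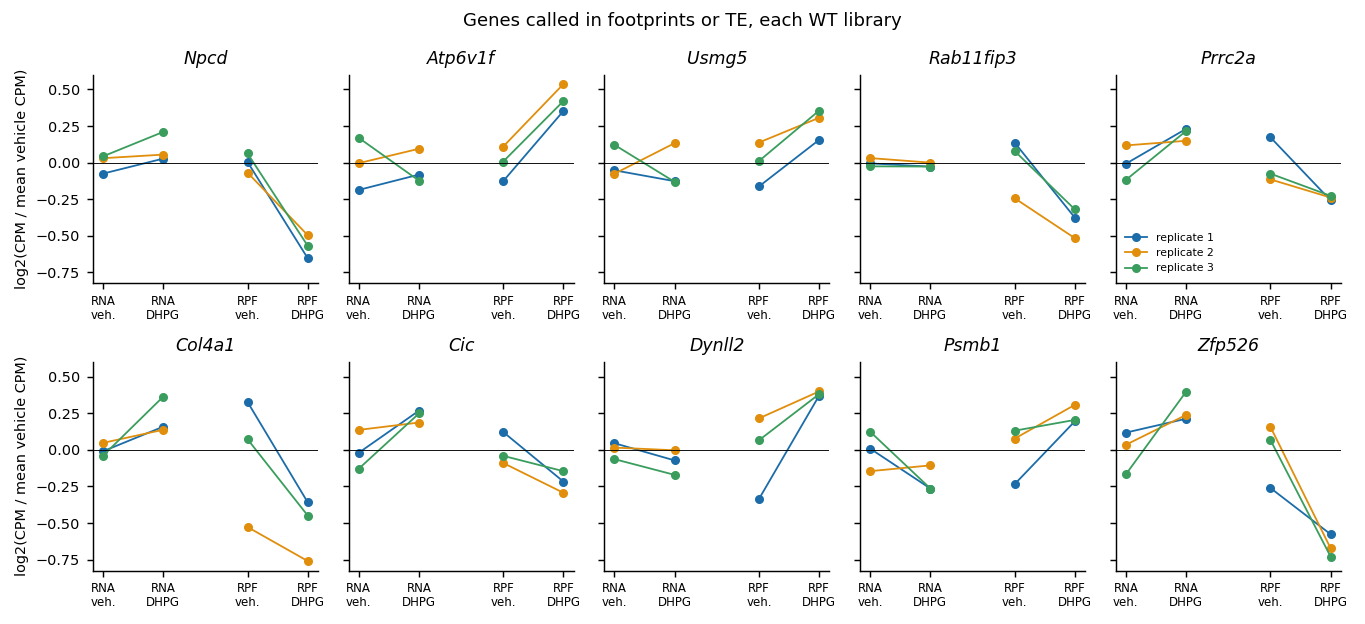
Log2 of CPM relative to the mean vehicle CPM of the same gene and assay, for the 10 genes called in RPF or TE. Points are the 6 WT RNA libraries and 6 WT RPF libraries, and lines join vehicle and DHPG libraries of the same replicate number. RPF of Npcd, Atp6v1f, Usmg5 and Rab11fip3 separates vehicle from DHPG, while for Prrc2a and Cic the RNA and RPF points move apart in opposite directions.

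The genes that came nearest to a call in RNA are given as values. Csf1, which encodes the growth factor of microglia, had 30.8, 38.4 and 39.2 CPM of RNA in vehicle and 39.7, 45.7 and 55.7 CPM in DHPG, a log2 difference of 0.37 (SE 0.0793, edgeR adjusted p = 0.473). The long nuclear RNA Malat1 had 787, 682 and 599 CPM in vehicle and 684, 516 and 511 CPM in DHPG (log2 difference -0.28, edgeR adjusted p = 0.541). Groups separated for Csf1 but overlapped for Malat1. Lrp4, the agrin receptor, differed by 0.27 (edgeR adjusted p = 0.541) and Rab18, a GTPase of lipid droplets, by -0.21 (edgeR adjusted p = 0.712).

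In RPF the next genes were Spink8 and Resp18. Spink8, a protease inhibitor gene with strong expression in CA1, had 40.8, 51.4 and 38.8 CPM in vehicle and 60.5, 60.1 and 57.5 CPM in DHPG (log2 difference 0.44, edgeR adjusted p = 0.146). Resp18, a protein of the neuroendocrine secretory pathway, differed by 0.36 (edgeR adjusted p = 0.146). Bptf, a subunit of a chromatin remodelling complex, had 170, 81.4 and 75.3 CPM in vehicle and 99.0, 72.2 and 66.4 CPM in DHPG (log2 difference -0.41, edgeR adjusted p = 0.153). The vehicle library of replicate 1 stood far above the others for Bptf, and the groups overlapped. In TE the nearest were Camta2, a calmodulin-binding transcription activator, at -0.36 and Lrfn4, a synaptic adhesion protein, at -0.60 (edgeR adjusted p = 0.101 each).

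The pathway that DHPG engages showed no called gene. Of the 24 members of the group I mGluR signalling list 0 were called in RNA, RPF or TE, beside 0%, 0.0311% and 0.0548% of all genes. At those shares 0 calls in a list of this size, here or below, do not set the list apart. The median differences of the 24 were 0.0082, -0.022 and -0.049, beside -0.0016, -0.0019 and -0.00036 over all genes. Grm5, the receptor mGluR5, had 512, 576 and 626 CPM of RPF in vehicle and 530, 536 and 539 CPM in DHPG, with log2 differences of -0.03 in RNA, -0.09 in RPF and -0.07 in TE. The DHPG libraries fell inside the vehicle range. Homer1, the scaffold that tethers these receptors, differed by -0.15 in RNA and 0.02 in RPF. The arm through ERK and mTOR (29 members) likewise had 0 calls, with medians of 0.023, 0.011 and -0.015. Rheb, the GTPase that switches on mTOR complex 1, had the smallest p of that list, with log2 differences of -0.17 in RNA, 0.25 in RPF and 0.43 in TE (edgeR adjusted p = 0.183 for TE).

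Effectors of mGluR-LTD and immediate early genes were also without calls, beside 0% of all genes in RNA, 0.0311% in RPF and 0.0548% in TE. The 23 effectors had medians of -0.017 in RNA, -0.0043 in RPF and 0.022 in TE. Arc, which drives the internalisation of AMPA receptors and whose dendritic mRNA is translated in this form of plasticity, had RNA of 86.2, 97.2 and 96.0 CPM in vehicle and 93.4, 102 and 110 CPM in DHPG. Its RPF was 88.4, 76.0 and 78.0 CPM in vehicle and 66.0 to 77.4 CPM in DHPG. Both readouts overlapped between the groups, with log2 differences of 0.13 in RNA (edgeR adjusted p = 0.768), -0.16 in RPF (0.760) and -0.29 in TE (0.394). Map1b, a microtubule-associated protein, differed by -0.16 in RPF, Ptpn5, the phosphatase STEP, by -0.07, App, the amyloid precursor protein, by -0.04 and Fmr1, which encodes FMRP, by 0.03. Camk2a, the kinase alpha subunit of the postsynaptic density, differed by 0.12 in RNA, -0.14 in RPF and -0.26 in TE, with the same sign in 3 of 3 contrasts of same-numbered libraries (edgeR adjusted p = 0.726, 0.712 and 0.340).

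The 33 immediate early genes, which neurons transcribe soon after activity, had medians of 0.050 in RNA, -0.052 in RPF and -0.11 in TE. Replicate 1 decided the last 2 values, since the RPF medians by replicate number were -0.19, 0.036 and 0.0099 and the TE medians -0.27, 0.029 and -0.045. Without WT vehicle replicate 1 they were 0.017 in RPF and -0.00033 in TE. Fos had 274, 220 and 260 CPM of RPF in vehicle and 222, 218 and 245 CPM in DHPG, which overlapped. Egr1 differed by 0.06 in RNA and 0.03 in RPF, and Npas4 by 0.03 and -0.02. Ptgs2, which encodes cyclooxygenase 2, differed by 0.29 in RPF (SE 0.102, edgeR adjusted p = 0.588). Eef2, the elongation factor whose phosphorylation slows translocation, differed by 0.06 in RNA and -0.03 in RPF, and Eef2k, its kinase, by 0.05 and -0.03. These libraries measure RNA and footprints and do not read phosphorylation.

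Footprints of Nrsn1, a vesicle membrane protein of neurons, were at 48.8, 42.9 and 46.4 CPM in vehicle and 37.8, 35.7 and 28.1 CPM in DHPG. The groups did not overlap, and the log2 difference of -0.43 was not called (SE 0.108, edgeR adjusted p = 0.252). Kif5a, a neuronal kinesin heavy chain, differed by 0.14 in RNA, -0.14 in RPF and -0.29 in TE, each with the same sign in 3 of 3 same-numbered contrasts (edgeR adjusted p = 0.172 for TE). Nisch, an imidazoline receptor candidate, differed by -0.25 in TE (edgeR adjusted p = 0.234), Snph, which docks axonal mitochondria, by -0.16, Slc25a23, a mitochondrial carrier, by -0.17, and Ache, acetylcholinesterase, by -0.05. In RNA they differed by 0.15, 0.14, 0.16 and 0.079 in that order, and in RPF by -0.093, -0.015, -0.0057 and 0.036.

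Across the transcriptome, RNA and RPF differences had no common direction. Over 12785 genes Pearson's r between the RNA and RPF log2 differences was -0.0160 and Spearman's coefficient -0.0889, as a description across genes that share libraries. Genes with higher RNA and lower RPF in all 3 same-numbered contrasts numbered 301 (2.35%), and 281 (2.20%) had the reverse. Those higher in both numbered 179 (1.40%) and those lower in both 222 (1.74%). The libraries did not overlap between vehicle and DHPG for 10.3% of genes in RNA and 8.96% in RPF.

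Groups of genes with long and with short coding sequences lay on opposite sides of 0. FMRP is the RNA-binding protein lost in fragile X syndrome. A list of 90 mRNAs picked by name, called here the long FMRP targets, had a median difference of 0.077 in RNA, -0.086 in RPF and -0.16 in TE. At an unadjusted p under 0.05, 27 of these were higher and 0 lower in RNA, 0 higher and 16 lower in RPF, and 0 higher and 34 lower in TE, beside 3.7% higher in RNA, 2.92% lower in RPF and 4.66% lower in TE over all genes. Of the 90, 1 (Prrc2a) was called, in TE. This list, like the others, was chosen with earlier results of these data known, and no binding data or length cutoff was applied to it. Its members Kif5a, Nisch, Snph and Slc25a23 are named in the study as responsive to DHPG, from data that include these WT libraries. The counts are thus a description and not a test of FMRP targets. Lrp1, a large endocytic receptor, differed by 0.17 in RNA, -0.16 in RPF and -0.34 in TE (edgeR adjusted p = 0.164 for TE). By replicate number the list's RNA median was 0.077, -0.039 and 0.21, so that replicate 2 had the opposite sign, while its RPF median was -0.10, -0.059 and -0.13. Without WT vehicle replicate 3 the medians were 0.012 in RNA, -0.038 in RPF and -0.047 in TE.

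Postsynaptic scaffolds (36 genes) had medians of 0.070 in RNA, -0.054 in RPF and -0.12 in TE and 0 calls. Replicate 2 went the other way in RNA (0.071, -0.023 and 0.15) and in TE (-0.20, 0.018 and -0.17), and without WT vehicle replicate 3 the RNA median was 0.017. Dlgap3, which links PSD-95 to Shank proteins, differed by -0.39 in TE (edgeR adjusted p = 0.172) and Ppp1r9b, the spine protein spinophilin, by -0.30 (edgeR adjusted p = 0.224). Shank3 differed by -0.26 in TE and Dlg4, which encodes PSD-95, by -0.16. In RNA Shank3 and Dlg4 differed by 0.15 and 0.11, and in RPF by -0.11 and -0.040. The 82 chromatin modifiers and remodelers had medians of 0.036, -0.071 and -0.10, with -0.030 in RNA in replicate 2. Synaptic vesicle and release genes (47) had a median of 0.044 in RNA and -0.0039 in RPF, and receptors for glutamate and GABA (27) had medians of 0.0046 and 0.025. Not one gene of these lists was called.

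Collagens and laminins had the lowest footprint median of the 21 pathway lists. It was -0.24 over 37 genes, with 8 lower and 0 higher at an unadjusted p under 0.05 (21.6% lower, beside 2.92% over all genes), and with an RNA median of 0.084 over 48 genes. Col1a1, a fibrillar collagen chain, differed by -0.49 in RPF (SE 0.158, edgeR adjusted p = 0.517), close to the value of Col4a1. The list's RPF median by replicate number was -0.40, -0.077 and -0.11, farthest from 0 in replicate 1. It shrank to -0.065 without replicate 1 and to -0.13 when only the DHPG library of that replicate was left out. Endothelial and mural cell markers had medians of 0.065 in RNA and -0.094 in RPF. Their RPF medians by replicate number were -0.14, -0.23 and 0.087, which did not share a sign, and their summed RPF of 285 to 333 CPM in vehicle overlapped with 271 to 294 CPM in DHPG. Their part in the result was not tested.

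Genes of the respiratory chain and of the proteasome, many of them short, were on the other side. Subunits of complexes II to V had medians of -0.053 in RNA (43 genes), 0.096 in RPF (40) and 0.15 in TE (40), and 14 of 40 were higher and 0 lower in RPF at an unadjusted p under 0.05, beside 3.79% higher over all genes. In TE the same 2 counts were again 14 and 0, beside 4.4% higher over all genes. Usmg5 was the member called, and Cox7b, a cytochrome c oxidase subunit, differed by 0.28 in RPF (SE 0.0649, edgeR adjusted p = 0.195). Complex I had medians of -0.073, 0.097 and 0.17, with Ndufb4 at 0.24 and Ndufa4 at 0.17 in RPF and 0 calls. The RPF medians of complexes II to V were 0.10, 0.077 and 0.14 by replicate number and those of complex I 0.059, 0.079 and 0.12. In RNA and TE replicate 2 had the opposite sign, with TE medians of 0.19, -0.078 and 0.40 for complexes II to V and 0.11, -0.052 and 0.40 for complex I. Without WT vehicle replicate 3 the RNA medians of both turned, to 0.038 and 0.051, and the TE medians were 0.066 and 0.053.

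Proteasome subunits (36) had medians of -0.075, 0.040 and 0.12 (-0.0073 in RPF in replicate 3), with Psmb1 called in TE, and Psma6, an alpha subunit, at 0.29 in TE (edgeR adjusted p = 0.337). Cytosolic ribosomal proteins, whose mRNAs carry the motif read by mTOR signalling, had a median of -0.092 in RNA (83 genes), 0.038 in RPF (81) and 0.12 in TE (81), with 0 calls. In RNA 10 of the 83 were lower and 0 higher at an unadjusted p under 0.05, beside 2.75% lower over all genes. Their medians by replicate number were -0.085, 0.14 and -0.31 in RNA and 0.099, -0.12 and 0.36 in TE, which did not share a sign. Mitochondrial ribosomal proteins (76) had medians of -0.054, 0.057 and 0.11. By replicate number their RNA medians were -0.0062, 0.094 and -0.18 and their TE medians -0.0027, -0.013 and 0.30, farthest from 0 in replicate 3. V-ATPase subunits had an RPF median of 0.051 over 20 genes, with Atp6v1f called and Atp6v0b at 0.21 (edgeR adjusted p = 0.465). Translation factors (46) had medians of -0.041, 0.00059 and 0.047, chaperones (42) of -0.027, 0.012 and 0.024, lysosomal genes (47) of 0.046, 0.014 and -0.032, helicases of -0.022, -0.012 and 0.032, and dynein and kinesin motors of -0.012, -0.077 and -0.018. Among these last 5 lists the motors held a called gene, Dynll2 in TE, and the other 4 held none. The TE medians of the translation factors were -0.0078, -0.018 and 0.12 by replicate number.

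**Figure D4:**
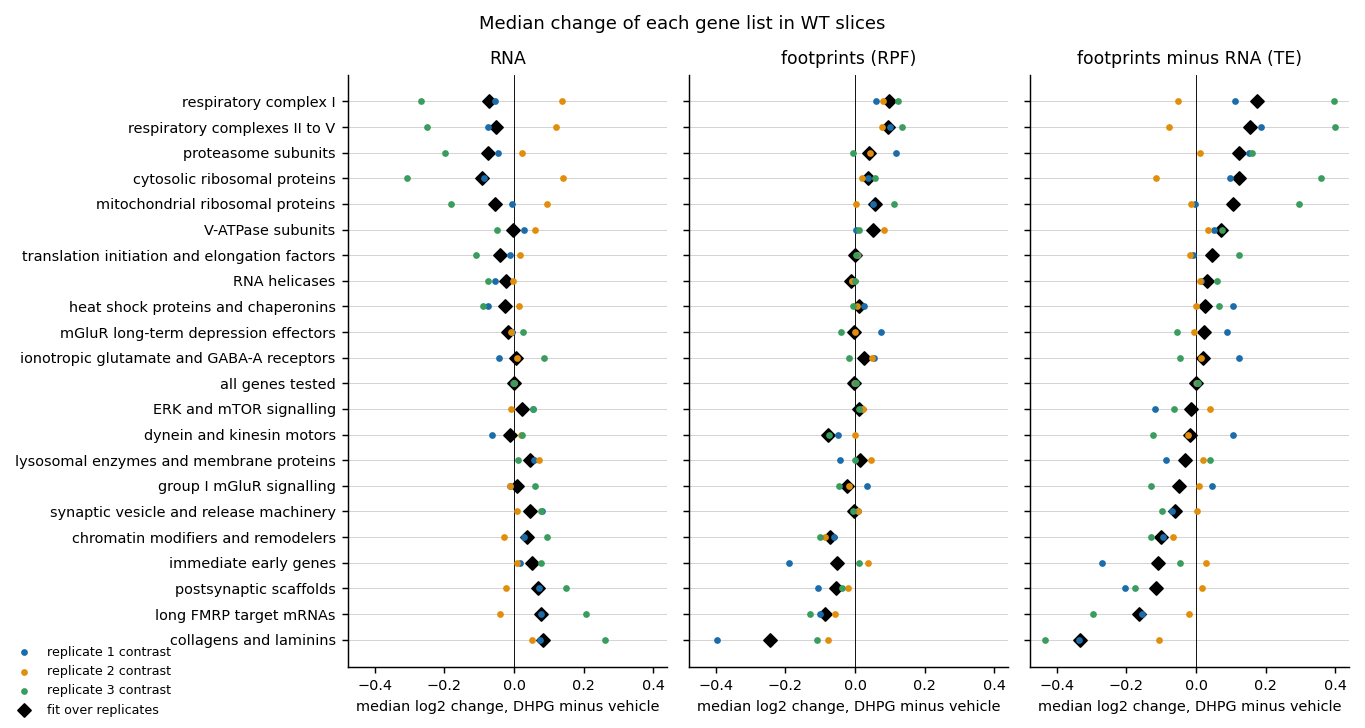
Median log2 fold change of DHPG against vehicle in WT over each gene list, for RNA, RPF and TE, with small points for the 3 contrasts of same-numbered libraries. The list of long FMRP targets sits at 0.077 in RNA and -0.16 in TE, and respiratory complexes II to V at -0.053 and 0.15.

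Sorting all genes by coding length gave the same order. In RPF the median difference was 0.077 for 961 genes under 500 coding nt, 0.038 for 2767 genes of 500 to 1000 nt, 0.0028 for 4918 genes of 1000 to 2000 nt, -0.031 for 3109 genes of 2000 to 4000 nt and -0.068 for 998 genes of 4000 nt or more. Of the 961 shortest genes 150 were higher and 18 lower in RPF at an unadjusted p under 0.05. Of the 998 longest 1 was higher and 91 lower, beside 3.79% higher and 2.92% lower over all genes. The RPF medians of the shortest genes were 0.076, 0.048 and 0.11 by replicate number and those of the longest -0.070, -0.054 and -0.077, so that each replicate number gave the same signs.

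RNA ran the other way, from -0.047 in the shortest to 0.046 in the longest genes, but replicate 2 had the opposite signs, at 0.068 and -0.035. TE medians ran from 0.12 to -0.12. Across 12753 genes Spearman's coefficient with coding length was 0.187 in RNA, -0.229 in RPF and -0.277 in TE, given as a description of genes that share 12 libraries. In Tsc2+/- slices the RPF medians of the shortest and longest genes were 0.037 and 0.0011.

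**Figure D5:**
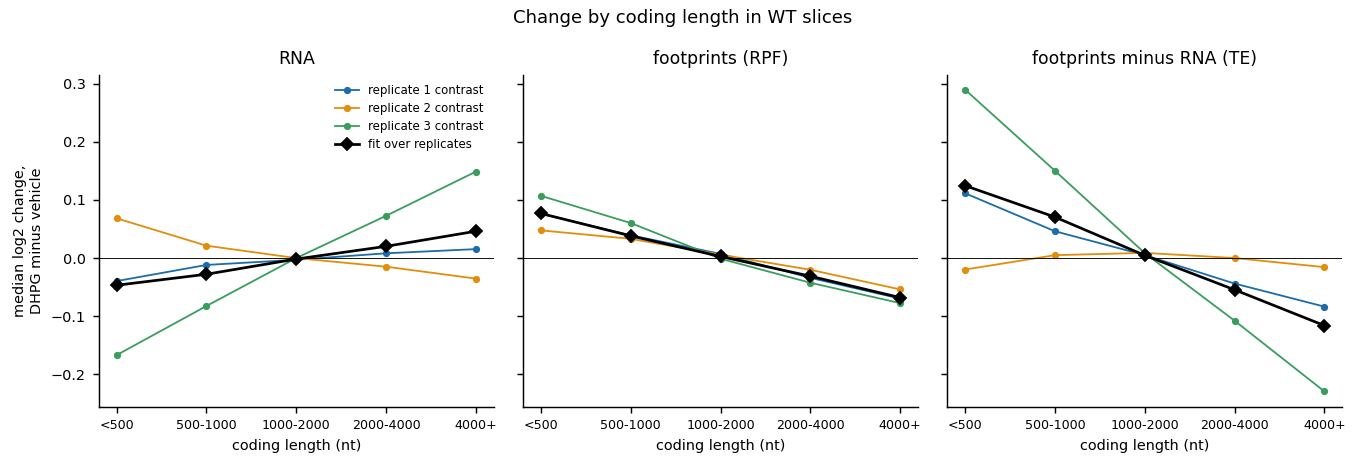
Median log2 fold change of DHPG against vehicle in WT (y axis) in 5 bins of coding length (x axis, nt) for RNA, RPF and TE, with thin lines for each replicate number. The RPF medians go from 0.077 in genes under 500 nt to -0.068 in genes of 4000 nt or more, with the same signs at these ends in each replicate number, and the RNA medians of replicate 2 go against those of replicates 1 and 3.

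GC content of the transcript also moved with the differences. In RNA the median was -0.069 for 2244 genes under 44% GC and 0.064 for 2638 genes at 56% GC or more, with the same sign in each replicate number. In RPF it was 0.033 and -0.040, and the signs held in replicate 1, whose medians were 0.15 and -0.15, compared with -0.022 and 0.032 in replicate 2 and -0.0085 and 0.027 in replicate 3. Libraries of 1 group also differed among themselves in these properties. The median deviation of genes of 4000 coding nt or more minus that of genes under 500 nt, on the log2 scale and relative to each gene's mean over the 6 WT libraries of the assay, was 0.0235, 0.0533 and -0.209 in the vehicle RNA libraries and 0.0688, -0.0411 and 0.115 in the DHPG RNA libraries, and the groups overlapped. In RPF it was 0.0511, -0.0325 and 0.194 in vehicle and -0.0978, -0.147 and 0.0174 in DHPG, which overlapped as well. The same measure was taken for genes at 56% GC or more minus genes under 44%. In RNA it was -0.195, -0.00623 and 0.00713 in vehicle and 0.0323, 0.0681 and 0.0912 in DHPG, without overlap. In RPF it was 0.338, -0.104 and -0.127 in vehicle and 0.0337, -0.0498 and -0.0834 in DHPG. These overlapped, and vehicle replicate 1 stood far above the other libraries. With each library's trend with length and GC content removed, the median of the FMRP target list became 0.021 in RNA, -0.0014 in RPF and -0.037 in TE, and that of complexes II to V -0.0037, 0.017 and 0.0069. That of collagens and laminins in RPF became -0.17. What the length and GC trends derive from was not tested.

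Genes were last sorted by how densely their mRNAs carry ribosomes without stimulation, measured in the vehicle libraries of Tsc2+/- slices, which share no library with the WT contrast. From the lowest to the highest of 5 equal groups of 12533 genes, the median RNA difference went from 0.049 to -0.053, the RPF difference from -0.059 to 0.043 and the TE difference from -0.11 to 0.10. In replicate 2 the TE medians of these ends were -0.010 and 0.0072.

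The same contrast in Tsc2+/- slices called 0 genes in RNA, RPF and TE, and the test of the difference between genotypes (WT effect against Tsc2+/- effect) called 0 genes in each, with 503 (3.47%), 490 (3.81%) and 519 (4.06%) genes at an unadjusted p under 0.05 by edgeR and 0 called by DESeq2. Npcd, at -0.57 in WT, differed by -0.13 in RPF in Tsc2+/- slices, and Nrsn1, at -0.43 in WT, by -0.39. For Npcd in RPF the test of the difference between genotypes gave 0.45 (edgeR adjusted p = 0.998). That the WT calls are absent from Tsc2+/- slices thus does not show a difference between the genotypes. The 0 calls do not show equal responses either.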

How the data were processed

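RNA and RPF libraries of WT slices given vehicle or DHPG (3 per group) were compared. The authors trimmed reads with Cutadapt and Trimmomatic, discarded rRNA and tRNA reads with bowtie2, mapped to mm10 with TopHat2, kept unique reads and removed duplicates by molecular identifier. The deposited tables hold RSEM expected counts, which the authors had rounded to integers, for each gene over whole RefSeq transcripts for RNA and over coding sequences without the first and last 30 nt for RPF. Reads of shared bases are divided by RSEM's estimate. The study's comparison also drew on further WT batches, not analysed here. In the RNA values 27 genes carried dates as names. There were 0 columns without a sample.

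Genes were kept with filterByExpr in edgeR 4.0.16 (R 4.3.3) at a minimum count of 10 and scaled by TMM. The quasi-likelihood F test (robust, two-sided) was fitted per assay to 12 libraries, with terms for group and replicate number. The study corrected a batch effect before its test, but the labels do not say whether the replicate number is that batch. TE was the interaction of assay and group over 24 libraries with replicate number within assay, in place of anota2seq. Genes with a Benjamini-Hochberg adjusted p under 0.1 were called. The common biological coefficient of variation was 7.01% for RNA, 7.04% for RPF and 6.83% for TE. Log2 CPM used a prior count of 2, and the standard error (SE) came from the F statistic. The pools of a group are the replicates, and p-values measure only the spread between them. The procedure was tested on simulated counts with the real library sizes and a fixed spread. These held no replicate effect and no trend with length or GC content, so the simulation does not speak to either.

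Named were every called gene, the 4 higher and 4 lower uncalled genes nearest to a call with a mean count of at least 50 and one sign in the 3 contrasts of same-numbered libraries (in part), 23 genes of mGluR signalling, plasticity and the study's text (some not reported here), and the 2 genes of smallest p in each list (in part). Members and lists were chosen with earlier results of these data known. For coordinates, length and GC content the RefSeq annotation of GRCm38.p6 was used, which held 14447 of the RNA genes (99.5%) and 12850 of the RPF genes (99.8%).

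Alternatives were no replicate block, the lysate as block for TE, DESeq2 1.42.0, ComBat (sva 3.50.0) then DESeq2, other scalings and filters, an adjusted p under 0.05, WT libraries only, halved RPF counts in replicates 2 and 3, removal of each library's trend with length and GC content, and fits without each replicate number or each WT library.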

Additional observations from a re-analysis of the deposited data

How the results depend on the processing

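The count of genes called in RNA was 0 under all alternatives except no count filter, with 6, and leaving out libraries, which gave 0 to 112. The 112 came without WT vehicle replicate 2. For RPF, beside the 4 genes called, an adjusted p under 0.05 gave 2, ComBat then DESeq2 gave 2, halved counts in replicates 2 and 3 gave 9, DESeq2 gave 14, no count filter gave 21 and WT libraries only gave 37. Leaving out libraries gave 1 to 26, with 26 without WT vehicle replicate 2 and 1 without replicate 2 or without WT DHPG replicate 2. For TE, beside the 7 genes called, removing the length and GC trend gave 0, an adjusted p under 0.05 gave 2, no count filter gave 11, halved counts gave 23 and DESeq2 gave 99. Leaving out libraries gave 0 to 371, with 371 without WT vehicle replicate 2, 50 without replicate 2, and 0 without replicate 3 or without WT DHPG replicate 1. Without the replicate block 0 genes were called in RNA, 2 in RPF and 1 in TE. Deviations of same-numbered WT libraries from their group means correlated across genes at 0.143, 0.0646 and 0.128 in RNA and 0.263, 0.10 and 0.219 in RPF and below 0 across numbers, so that each library was closest to its own number, but the labels do not say what the number stands for and the value for replicate 2 in RNA was under 0.1. With the lysate as replicate block 5 were called in TE, of which 4 were among the 7 called in the main fit.

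Some of the DESeq2 calls rest on its independent filtering, since adjustment over all genes left 5 in RPF and 34 in TE. The test of the difference between genotypes, with 0 calls, gave 1 in RNA and 3 in RPF with no count filter and 2 in TE with halved counts, and leaving out libraries gave 0 to 2 in RNA, 0 to 2 in RPF and 0 to 5 in TE. Of 1937 values of single named genes under the alternatives, 1756 stayed on the same side of the threshold, 89 lost it and 92 gained it. Most of the 1937 were values of uncalled genes, and only the called genes could lose the threshold, so that the 89 all belong to them. In 102 of the 1937 the sign was opposite to that reported, 0 of them for a gene past the threshold in either fit. The adjusted p of Npcd in RPF ranged from 1.58e-10 to 0.0192. Without WT vehicle replicate 2 the TE median of the FMRP target list was -0.25, and without WT vehicle replicate 3 it was -0.047. The causes of these shifts were not tested.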
